A study of Mus musculus with 6 samples.

Results

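The genes described here are 36 genes of the unfolded protein response and of protein folding in the endoplasmic reticulum (ER), out of 31205 gene symbols counted in the series. They were chosen by symbol, and the 36 symbols take up 37 of 31253 feature rows, because Ddit3 has a further row that held 0 UMIs in every class. They were placed in the PERK branch (7 genes), the IRE1 branch (12 genes), the ATF6 branch (12 genes) and a group of other ER folding genes (5 genes). Each target was put in the branch best known for it, although many answer to more than 1. The series measured RNA in single cells of the hippocampus of old mice by droplet capture, in 3 libraries from mice kept in air (Control) and 3 from mice that inhaled the general anaesthetic sevoflurane at 2% for 6 h (Sevoflurane). Tissue was collected 24 h after the exposure, then digested, frozen as a cell suspension and thawed before capture. Strain, sex and age in months are not given in the sources used here. The labels name 6 mice but do not tie each library to an animal, so the p-values rest on the spread among libraries, which may be technical.

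The unfolded protein response adjusts the folding capacity of the ER to its load of secreted and membrane proteins. Its sensors sit in the ER membrane: PERK, a kinase encoded by Eif2ak3, lowers translation by phosphorylating eIF2 alpha and so raises the translation of the transcription factor ATF4; IRE1, encoded by Ern1, splices the Xbp1 mRNA into the form that encodes an active transcription factor; and ATF6 is cut in the Golgi to release a transcription factor. ATF6 and spliced XBP1 act on genes of chaperones, disulfide isomerases and ER-associated degradation, the route by which misfolded proteins leave the ER. Neurons depend on this machinery for the synthesis of receptors, channels and secreted peptides.

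The 6 libraries held 54426522 to 70741809 UMIs (unique molecular identifiers, which count captured transcripts) in 7068 to 9795 barcodes, and no pair shared more than 0.333% of its barcodes. After filters and doublet removal, 6645 to 8996 cells per library were clustered, and 40 of 48 clusters were named from marker genes. Each class name used below stands for cells that resemble that type by these markers. Counts were summed per library and class and tested in 7 broad classes and in 5 neuron subclasses, which are subsets of the neurons and repeat their cells. Sevoflurane 1 differed from the rest in genes of the sex chromosomes, with 1400 CPM (UMI counts scaled to a common total) of Xist and 0 CPM of the Y-linked Eif2s3y, against 0.523 to 1.27 CPM and 123 to 146 CPM in the other 5 libraries, which marks it as female and the others as male. Transcripts of choroid plexus epithelium also differed between the groups: Ttr stood at 71.4 to 441 CPM of whole Control libraries and at 1.86 to 2.65 CPM of Sevoflurane libraries. Cells named as choroid plexus numbered 59, 16 and 97 in the Control libraries and 0 in every Sevoflurane library. Whether the tissue taken differed between the groups was not tested and cannot be told from the labels. Counts were not corrected for free RNA, and neuron markers reached 0.0984 to 0.417 of their neuronal level in the other broad classes.

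In neurons, 7 of the 36 genes were lower after sevoflurane and 1 was higher, while no gene of the PERK branch passed the test. The genes that fell were the transcription factor gene Xbp1, the chaperone gene Hsp90b1, the disulfide isomerase genes Pdia3, Pdia4 and Pdia6, and the cochaperone genes Dnajb11 and Dnajc3. They fell by 0.42 to 0.76 on the log2 scale. The gene that rose was Sil1, which encodes a nucleotide exchange factor of the chaperone BiP, with a log2 fold change of 0.32. Among all 18855 genes tested in neurons, 2.51% were called lower and 1.5% higher (edgeR quasi-likelihood test, Benjamini-Hochberg adjusted p under 0.05 over all genes tested). The 3 Sevoflurane libraries lay wholly below the 3 Control libraries for 15 of the 36 genes and wholly above them for 3. Of all genes tested, 13.8% lay wholly below and 12.9% wholly above. The 36 genes had a median log2 fold change of -0.11, beside a median of 0.02 over all genes tested, and 26 of them had a negative value, beside 46.1% of all genes. None of the 8 calls was made without Control 1, without Control 2 or without Control 3, and the number of calls was 7, 4 and 6 without Sevoflurane 1, 2 and 3.

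**Figure D1:**
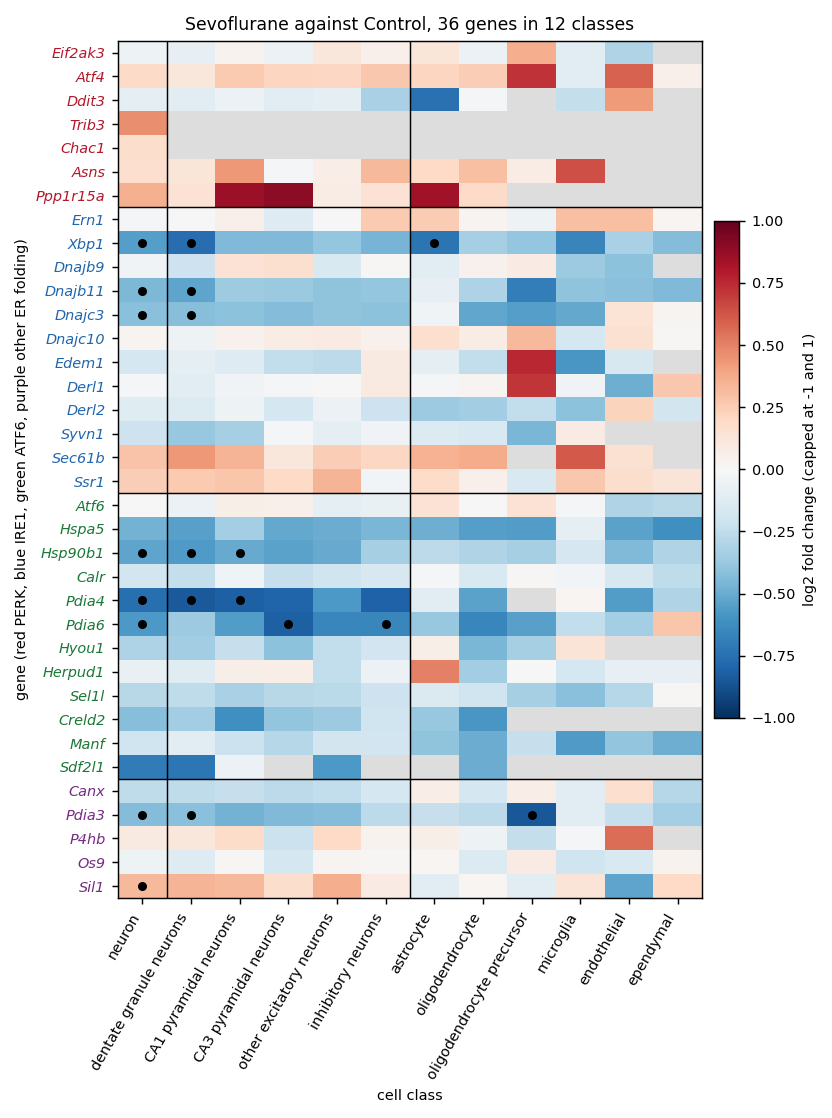
Heat map of the log2 fold change, Sevoflurane over Control, of the 36 genes (rows, grouped by branch) in 12 cell classes (columns, all neurons, then 5 neuron subclasses, then 6 other classes); blue is lower, red is higher, colours stop at -1 and 1, grey was not tested, and a black dot marks an edgeR adjusted p under 0.05. The 20 dots come from 380 gene and class tests: 9 of 130 in the ATF6 branch, 7 of 138 in the IRE1 branch, 4 of 59 in the other ER folding genes and 0 of 53 in the PERK branch. In neurons, 2.51% of all genes tested were called lower and 1.5% higher, so 0 calls in the few PERK tests lay near the background. The subclasses repeat the cells of the neurons, so a gene can hold several dots that are not independent.

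The transcripts of the sensors did not pass the test in neurons. Ern1 stood at 29.9, 28.7 and 27.6 CPM in the Control libraries and at 26.7, 28.8 and 30.3 CPM in the Sevoflurane libraries, normalised with TMM factors as are all class levels below. The groups overlapped, and the log2 fold change was -0.01 (SE 0.07, edgeR adjusted p = 0.957). Eif2ak3 had 27.6, 27.8 and 25.7 CPM in Control and 27.6, 22.9 and 27.7 CPM in Sevoflurane, again with overlap (log2 fold change -0.05, SE 0.09, edgeR adjusted p = 0.787). Atf6 had 149, 155 and 142 CPM in Control and 148, 151 and 145 CPM in Sevoflurane (log2 fold change -0.00, SE 0.06, edgeR adjusted p = 0.981). With 43125 UMIs of Atf6, 8326 of Ern1 and 7728 of Eif2ak3 in neurons, all 3 were counted deeply, and their libraries differed by less than the spread within a group. These are levels of RNA, and the sensors are switched by phosphorylation, oligomerisation or cleavage of the protein, which the counts do not measure. Across the classes tested, Ern1 had a negative log2 fold change in 4 of 12, Eif2ak3 in 6 of 11 and Atf6 in 7 of 12, and no class gave a call.

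Xbp1, the transcription factor gene on which IRE1 acts, was among the genes that fell. It stood at 25.1, 24.6 and 25.7 CPM in the Control libraries and at 19.2, 16.9 and 15.2 CPM in the Sevoflurane libraries (25.1 ± 0.566 and 17.1 ± 2.03 CPM, mean ± SD, n = 3 each). Every Sevoflurane library lay below every Control library, and the Control values lay close together. The log2 fold change was -0.55 (SE 0.09, edgeR adjusted p = 0.0248). Counts of tags near the 3′ end do not separate the spliced from the unspliced Xbp1 mRNA, so the activity of IRE1 on it was not measured. Xbp1 (ENSMUSG00000020484) lies on chromosome 11 from 5520659 to 5525893, plus strand, in the GENCODE M21 annotation of GRCm38, which was matched by gene identifier and may not be the authors' build.

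Atf4 and Ddit3, the transcription factor genes downstream of PERK, did not pass the test. Atf4 had 18.6, 19.8 and 19.8 CPM in Control and 25.4, 21.3 and 19.8 CPM in Sevoflurane, where the highest value came from the female library. Sevoflurane 3 equalled the higher Control values at this precision (log2 fold change 0.20, SE 0.10, edgeR adjusted p = 0.314). Ddit3, which encodes CHOP, a factor linked to cell death under lasting ER stress, had 5.35, 6.01 and 5.4 CPM in Control and 5.69, 5.54 and 4.45 CPM in Sevoflurane. These groups overlapped (log2 fold change -0.10, SE 0.13, edgeR adjusted p = 0.724). The other genes of the branch were Asns (asparagine synthetase), Ppp1r15a (the phosphatase subunit that reverses eIF2 alpha phosphorylation), Trib3 (a pseudokinase induced by ATF4) and Chac1 (an enzyme that degrades glutathione). Asns had 15.2, 16.6 and 14.7 CPM in Control and 21.9, 15.8 and 14.7 CPM in Sevoflurane, so that a single library, the female one, stood above the rest. Its log2 fold change of 0.17 had an SE of 0.15. Ppp1r15a stood at 2.39 ± 0.299 and 3.06 ± 0.604 CPM (log2 fold change 0.36, SE 0.19, edgeR adjusted p = 0.326). Trib3 and Chac1 were sparse, with 117 and 187 UMIs in all neurons, and their log2 fold changes of 0.47 (SE 0.56) and 0.17 (SE 0.46) could not be told from 0 at this depth. The branch had a median log2 fold change of 0.17 in neurons, with 5 of 7 genes positive, 0 called by edgeR or DESeq2 and 0 at an unadjusted p under 0.05, beside 9.86% of all genes tested that were higher at that level. Without Sevoflurane 1 the median of the branch was -0.09.

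**Figure D2:**
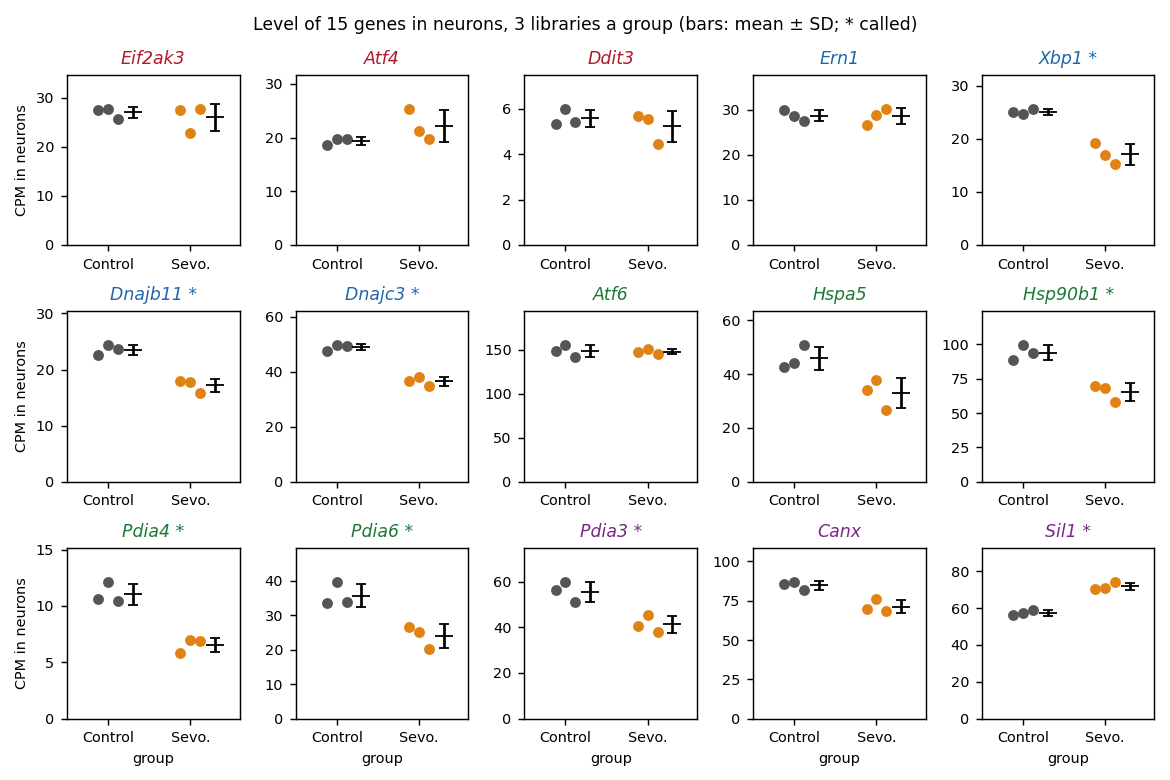
Level of 15 of the genes in neurons, in CPM on axes that start at 0, with a point for each of the 3 Control libraries (grey) and 3 Sevoflurane libraries (orange), a bar for mean ± SD, an asterisk for an edgeR adjusted p under 0.05, and title colours red for PERK, blue for IRE1, green for ATF6 and purple for other ER folding. The sensors Eif2ak3, Ern1 and Atf6 overlap between the groups, Xbp1 and the folding genes marked with an asterisk are lower in every Sevoflurane library, and Sil1 is higher in every Sevoflurane library.

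The ATF6 branch holds the ER chaperones and their partners, and all 12 of its genes had a negative log2 fold change in neurons, with a median of -0.37. Of these, 3 were called (Hsp90b1, Pdia4 and Pdia6). At an unadjusted p under 0.05, 9 of the 12 were lower, beside 11% of all genes tested. The promoter sequences that follow are shown because ATF6 and XBP1 are known to act through the ER stress response element, written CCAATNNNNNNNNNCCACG. Binding to the element was not measured. The 36 genes were chosen as genes of this response, so matches among them are a description and not a test. RefSeq promoters of GRCm38.p6, 250 bases before to 50 bases after a start, were given for 31 of the 36 genes. A match on either strand was found in 8 of these 31, namely Hspa5, Hsp90b1, Calr, Pdia6, Creld2, Dnajc3, Syvn1 and Canx, and in 0.137% of 27025 gene symbols with a promoter of this length. With the last base left free (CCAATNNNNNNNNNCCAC, which includes every match of the longer motif), 12 genes matched, Pdia4, Pdia3, Herpud1 and Derl2 being added, beside 0.429% of all symbols. Bases before the start are printed 5′ to 3′ on the strand of the gene, with motif matches in capitals. The GENCODE spans of Hspa5, Hsp90b1, Pdia6, Pdia3, Asns and Chac1 begin 13 to 127 bases upstream of the RefSeq starts used here, so that 120 of the 250 bases printed for Hspa5 and all bases printed for Pdia3 and Asns lie inside the GENCODE gene. A match on the opposite strand reads as CGTGG or GTGG, the spacer and ATTGG.
Hspa5 (chr2:34771840-34772089, plus strand): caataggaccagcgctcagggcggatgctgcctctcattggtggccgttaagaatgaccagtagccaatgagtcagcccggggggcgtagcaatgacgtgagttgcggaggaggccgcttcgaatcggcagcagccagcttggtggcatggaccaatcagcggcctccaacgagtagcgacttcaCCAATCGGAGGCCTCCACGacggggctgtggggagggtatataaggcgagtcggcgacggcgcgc
Hsp90b1 (chr10:86705518-86705671, minus strand): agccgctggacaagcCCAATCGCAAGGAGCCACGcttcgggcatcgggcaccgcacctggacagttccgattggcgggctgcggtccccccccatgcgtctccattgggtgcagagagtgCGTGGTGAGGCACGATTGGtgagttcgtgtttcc
Pdia6 (chr12:17266476-17266524, plus strand): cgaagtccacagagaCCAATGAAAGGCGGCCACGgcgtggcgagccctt
Pdia4 (chr6:47813587-47813634, minus strand): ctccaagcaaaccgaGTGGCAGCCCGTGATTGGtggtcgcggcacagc
Pdia3 (chr2:121413858-121413901, plus strand): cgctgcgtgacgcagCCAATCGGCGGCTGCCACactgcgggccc
Dnajc3 (chr14:118937812-118937860, plus strand): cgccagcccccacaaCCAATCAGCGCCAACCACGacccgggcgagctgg

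Hspa5, which carries the motif 65 to 47 bases before its start, encodes BiP, the chaperone that also holds the sensors inactive. It had 42.5, 44.3 and 50.7 CPM in the Control libraries and 34.3, 38 and 26.7 CPM in the Sevoflurane libraries. Every Sevoflurane library was lower, with a wide spread in that group, and the log2 fold change of -0.47 (SE 0.13) missed the threshold (edgeR adjusted p = 0.0884). DESeq2 called it lower. Hsp90b1, the ER member of the HSP90 chaperones, carries the motif on both strands. It had 88.7, 99.3 and 94.1 CPM in Control and 70, 68 and 57.9 CPM in Sevoflurane (94.1 ± 5.29 and 65.3 ± 6.51 CPM, mean ± SD, n = 3 each). The groups were far apart relative to their spread, and the gene fell by 0.53 on the log2 scale (SE 0.08, edgeR adjusted p = 0.0198). Hsp90b1 (ENSMUSG00000020048) lies on chromosome 10 from 86690209 to 86705509, minus strand.

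The disulfide isomerases of this branch make and reshuffle disulfide bonds in new proteins. Pdia4 had 10.6, 12.1 and 10.4 CPM in the Control libraries and 5.79, 6.93 and 6.85 CPM in the Sevoflurane libraries, so that the highest Sevoflurane value lay well under the lowest Control value. Its log2 fold change of -0.76 (SE 0.11, edgeR adjusted p = 0.0172) was the lowest among the 36 genes in neurons, and the gene (ENSMUSG00000025823) lies on chromosome 6 from 47796141 to 47813430, minus strand. Pdia6 had 33.6, 39.6 and 33.8 CPM in Control and 26.7, 25.1 and 20.1 CPM in Sevoflurane. All 3 Sevoflurane libraries were lower, and the gene fell by 0.57 on the log2 scale (SE 0.12, edgeR adjusted p = 0.0405). Pdia6 (ENSMUSG00000020571) lies on chromosome 12 from 17266545 to 17284770, plus strand.

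The remaining genes of the ATF6 branch were not called. Sel1l, the partner of the ubiquitin ligase of ER-associated degradation, came nearest to the threshold, at 90.6 ± 4.93 CPM in Control and 74.6 ± 3.68 CPM in Sevoflurane (log2 fold change -0.28, SE 0.06, edgeR adjusted p = 0.0506). Hyou1, a nucleotide exchange factor of BiP, had a log2 fold change of -0.31 (edgeR adjusted p = 0.0737), and Creld2, a secreted ER stress protein, -0.43 (edgeR adjusted p = 0.0896). In both, the groups did not overlap. Sdf2l1, a subunit of an ER chaperone complex, had -0.70 with an SE of 0.21 on 450 UMIs (edgeR adjusted p = 0.108). Calr, the lectin chaperone calreticulin, was at 54.9 ± 0.924 and 48.5 ± 8.61 CPM, where Sevoflurane 3 with 38.5 CPM lay under the other 5 libraries at 53.2 to 55.8 CPM. Manf, a secreted protein that binds BiP, and Herpud1, a scaffold of ER-associated degradation, overlapped between the groups, at log2 fold changes of -0.20 and -0.07.

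The IRE1 branch was divided in neurons. Xbp1, Dnajb11 and Dnajc3 fell, 9 of 12 genes had a negative value, and the median of -0.08 lay near that of all genes. Dnajb11 and Dnajc3 encode J-domain cochaperones that pass unfolded clients to BiP. Dnajb11 had 22.6, 24.3 and 23.6 CPM in the Control libraries and 17.9, 17.8 and 15.8 CPM in the Sevoflurane libraries. The groups were apart by more than their spread (log2 fold change -0.45, SE 0.08, edgeR adjusted p = 0.0248). Dnajc3, whose product also binds PERK, had 47.6, 49.6 and 49.4 CPM in Control and 36.6, 38.2 and 34.8 CPM in Sevoflurane, and fell by 0.42 on the log2 scale (SE 0.06, edgeR adjusted p = 0.0165). Dnajb11 (ENSMUSG00000004460) lies on chromosome 16 from 22857845 to 22879634 and Dnajc3 (ENSMUSG00000022136) on chromosome 14 from 118937976 to 118981697, both on the plus strand.

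The other J-domain genes of the branch did not pass the test, and their groups overlapped. Dnajb9 stood at 9.16 ± 0.959 and 8.96 ± 1.38 CPM (log2 fold change -0.03, SE 0.14) and Dnajc10, an ER disulfide reductase, at 58.6 ± 0.377 and 59.7 ± 1.7 CPM (log2 fold change 0.03, SE 0.05). Of the degradation genes, Syvn1, the ubiquitin ligase, was lower without overlap at 14 ± 0.408 and 12.2 ± 0.994 CPM but was not called (log2 fold change -0.20, edgeR adjusted p = 0.231). Edem1, a lectin that recognises misfolded glycoproteins, Derl1 and Derl2, membrane proteins of the export route, had log2 fold changes of -0.17, -0.01 and -0.12 with overlapping groups. The genes of the entry route into the ER had positive values. Ssr1, a subunit of the translocon-associated complex, had 38, 36.9 and 37.8 CPM in Control and 43.2, 46.4 and 44.3 CPM in Sevoflurane. All 3 Sevoflurane libraries were higher, and the log2 fold change of 0.25 (SE 0.06) missed the threshold (edgeR adjusted p = 0.051) and was called by DESeq2. Sec61b, a subunit of the translocation channel, had 0.28 (SE 0.18, edgeR adjusted p = 0.41) on overlapping groups.

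Among the other ER folding genes, Pdia3 fell and Sil1 rose. Pdia3 encodes the disulfide isomerase that works with calnexin and calreticulin on glycoproteins. It had 56.2, 59.8 and 51 CPM in the Control libraries and 40.5, 45.2 and 38.1 CPM in the Sevoflurane libraries, with no overlap (log2 fold change -0.43, SE 0.09, edgeR adjusted p = 0.0372). Pdia3 (ENSMUSG00000027248) lies on chromosome 2 from 121413775 to 121438687, plus strand. Sil1 had 56.1, 57.2 and 59.2 CPM in Control and 70.4, 71.2 and 74.1 CPM in Sevoflurane. Each group was narrow and the groups were apart (log2 fold change 0.32, SE 0.05, edgeR adjusted p = 0.0209). Canx, the membrane-bound lectin chaperone calnexin, was at 84.8 ± 2.74 and 71.3 ± 3.92 CPM without overlap and just missed the threshold (log2 fold change -0.25, SE 0.06, edgeR adjusted p = 0.0575). P4hb, the protein disulfide isomerase after which the family is named, and Os9, a lectin of ER-associated degradation, had log2 fold changes of 0.09 and -0.05 with overlapping groups.

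**Figure D3:**
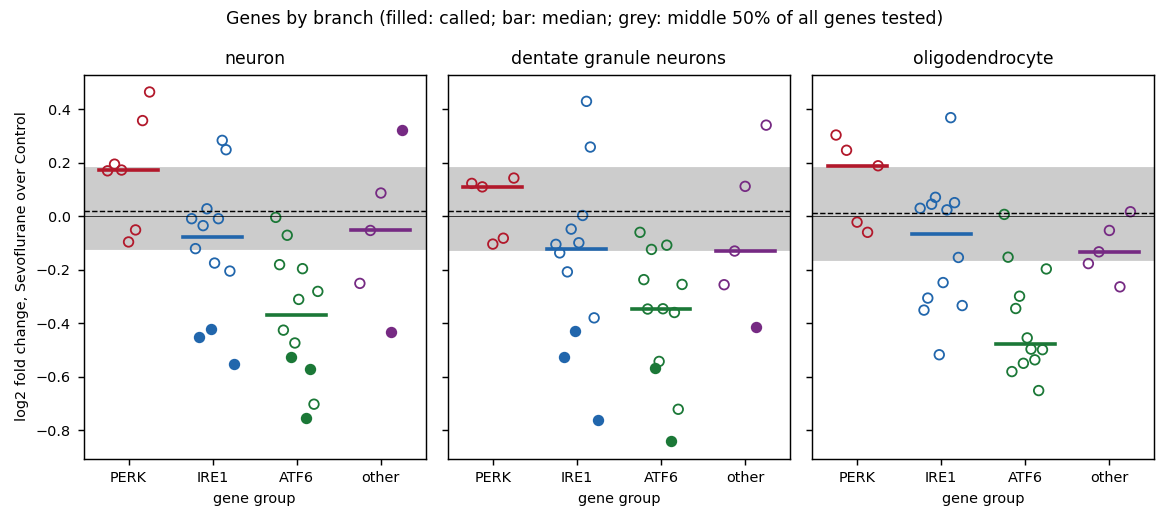
Log2 fold change, Sevoflurane over Control, of each tested gene (a point) in neurons, dentate granule neurons and oligodendrocytes, by branch; filled points had an edgeR adjusted p under 0.05, coloured bars are medians of the branch, the dashed line is the median of all genes tested and the grey band holds their middle 50%. The bar of the ATF6 branch lies under the grey band in each panel, at -0.37, -0.35 and -0.48, and that of the PERK branch lies above the dashed line, at 0.17, 0.11 and 0.19.

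The genes with the ER stress response element and those without it were set side by side in neurons, as a description. The 8 genes with the full motif all had a negative log2 fold change, with a median of -0.42, and 3 of them were called. The 23 genes with a RefSeq promoter and no match of the full motif had a median of -0.05, with 14 negative and 4 called. With the last base free, the 12 genes that matched had a median of -0.42, with 12 negative and 5 called. The 19 without a match of that form had a median of -0.01, with 10 negative and 2 called, Dnajb11 with the short form among them. Outside the 36 genes, 13 tested genes carried the full motif, with a median of -0.05, 7 negative and 0 called by edgeR. For the form with its last base free, these were 44 genes, with a median of -0.02, 23 negative and 2 called. The short form of the element, ATTGGNCCACG, was found in Dnajb11 and Herpud1 and in 0.0444% of all symbols, and the Dnajb11 match lies after the start. The unfolded protein response element TGACGTGG was found in none of the 31 promoters and in 0.714% of all symbols. The core of the amino acid response element through which ATF4 acts, TGATGNAA, was found in Trib3, Chac1, Asns and Herpud1 and in 4.51% of all symbols. Those 4 genes had a median log2 fold change of 0.17 in neurons. The sequences of Asns and Chac1 are shown for contrast with the chaperone promoters above, again before the start and on the strand of the gene, with the match in capitals (on the opposite strand in Chac1).
Asns (chr6:7693210-7693247, minus strand): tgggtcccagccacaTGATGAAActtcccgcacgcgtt
Chac1 (chr2:119351034-119351071, plus strand): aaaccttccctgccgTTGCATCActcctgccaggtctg

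**Figure D4:**
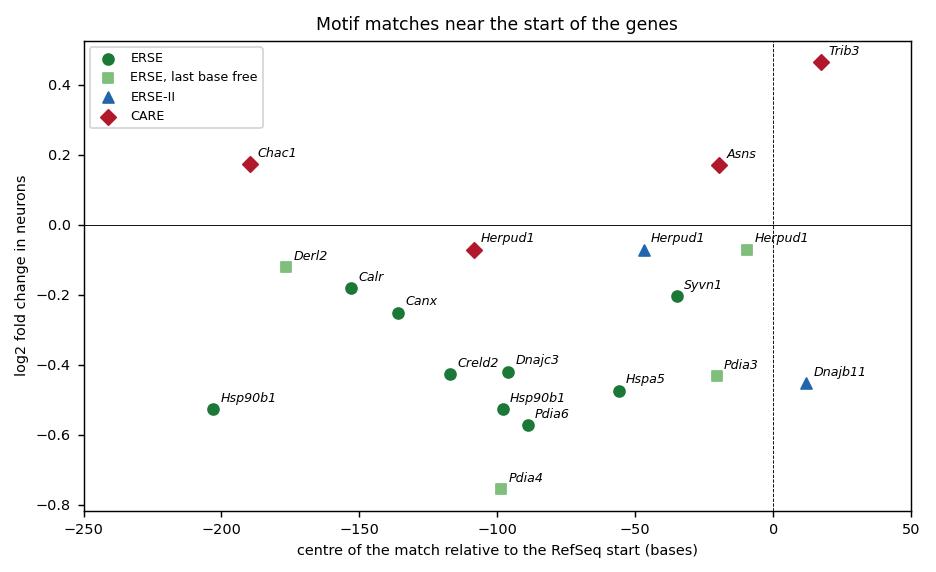
Position of each motif match relative to the RefSeq start (x axis, bases, negative before the start) against the log2 fold change of the gene in neurons (y axis), with circles for the ER stress response element (ERSE), squares for the form with its last base free, triangles for the short form (ERSE-II) and diamonds for the amino acid response element core (CARE). The 9 circles, Hsp90b1 having a pair, lie between -0.18 and -0.57, and 3 of the 4 diamonds lie above 0.

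Dentate granule neurons, the excitatory cells of the dentate gyrus, gave most of the calls among the neuron subclasses. Of 34 genes tested, 6 were lower, beside 2.55% of all genes: Xbp1, Dnajb11, Dnajc3, Hsp90b1, Pdia4 and Pdia3. None was higher by edgeR, beside 1.18% of all genes, while 2 had an unadjusted p under 0.05 in that direction, beside 8.8% of all genes, and DESeq2 called Sil1. Xbp1 had 28, 25.8 and 28.7 CPM in the Control libraries and 19.5, 15.1 and 14 CPM in the Sevoflurane libraries. The highest Sevoflurane value came from the female library and lay well under the Control values (log2 fold change -0.76, SE 0.13, edgeR adjusted p = 0.0193). Pdia4 had 12.1, 14.9 and 11.7 CPM in Control and 6.08, 7.24 and 8.41 CPM in Sevoflurane, and fell by 0.84 on the log2 scale (SE 0.16, edgeR adjusted p = 0.0283). Hsp90b1 had 99.9, 119 and 108 CPM in Control and 80.9, 76.8 and 63.4 CPM in Sevoflurane, again without overlap (log2 fold change -0.57, SE 0.10, edgeR adjusted p = 0.0255).

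The 3 other calls in these cells were both cochaperone genes and Pdia3. Dnajb11 had 23.2, 24.5 and 24.2 CPM in Control and 16.9, 17 and 16.1 CPM in Sevoflurane, both groups being tight (log2 fold change -0.53, SE 0.09, edgeR adjusted p = 0.0152). Dnajc3 had 46.5, 49.4 and 51.3 CPM against 35.2, 39 and 35.2 CPM (log2 fold change -0.43, edgeR adjusted p = 0.028). Pdia3 had 60.4, 66.7 and 62.8 CPM against 47.3, 50.7 and 44.5 CPM (log2 fold change -0.42, edgeR adjusted p = 0.0269). Hspa5 went from 56.2 ± 6.57 to 38.6 ± 7.59 CPM and missed the threshold (log2 fold change -0.54, edgeR adjusted p = 0.0831). The 12 genes of the ATF6 branch were all negative here too, with a median of -0.35 beside 0.02 for all genes tested. Without Control 2 or Control 3 none of the 6 calls was left, and without Control 1 there were 2. Without each Sevoflurane library there were 3.

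The other neuron subclasses gave fewer calls at smaller cell numbers. In CA1 pyramidal neurons, 2 of 34 genes were lower, beside 0.814% of all genes. Hsp90b1 had 74.6, 84.3 and 82.7 CPM in Control and 57.5, 59.4 and 53.4 CPM in Sevoflurane (log2 fold change -0.51, SE 0.08, edgeR adjusted p = 0.0198). Pdia4 had 11.2, 11.2 and 9.24 CPM in Control and 5.51, 6.28 and 6.27 CPM in Sevoflurane (log2 fold change -0.81, SE 0.15, edgeR adjusted p = 0.0411). In both genes every Sevoflurane library lay below every Control library. DESeq2 called Hsp90b1 and gave Pdia4 no adjusted p. Leaving out Control 1 or Sevoflurane 1 left 1 call, and leaving out any other library left 0.

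In CA3 pyramidal neurons, 1 of 33 genes was lower, beside 0.0771% of all genes. This was Pdia6, with 36.7, 39 and 35.3 CPM in Control and 22.7, 21.7 and 18.4 CPM in Sevoflurane (log2 fold change -0.82, SE 0.11, edgeR adjusted p = 0.0466). Inhibitory neurons also had 1 call in 33 genes, again Pdia6, beside 1.15% of all genes called lower. It had 33.3, 37.7 and 31.3 CPM in Control and 23.9, 21.5 and 19.9 CPM in Sevoflurane (log2 fold change -0.65, SE 0.13, edgeR adjusted p = 0.0269). In both subclasses the groups did not overlap. DESeq2 called Pdia6 in CA3 and gave it no adjusted p in inhibitory neurons, where it called Hsp90b1. The CA3 call was lost when any of the 6 libraries was left out, and the call in inhibitory neurons was lost without any library other than Sevoflurane 1. In the other excitatory neurons edgeR called 0 of 34 genes, beside 0.666% of all genes in either direction, with 10 lower and 2 higher at an unadjusted p under 0.05, beside 8.54% and 6.82% of all genes. DESeq2 called 5 lower there (Dnajc3, Hsp90b1, Hspa5, Pdia3 and Pdia6). The share of all genes that DESeq2 called is not given here, so this count has no background beside it. The nearest to the threshold in edgeR were Hsp90b1 at -0.50 and Pdia6 at -0.65, both with an adjusted p of 0.0559.

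Glial and vascular classes gave 2 calls in all, and both were lower. In astrocytes, 1 of 33 genes passed, beside 1.14% of all genes called lower. Xbp1 had 31.2, 33.3 and 39.4 CPM in Control and 21.4, 20.6 and 20.5 CPM in Sevoflurane, without overlap and with very even Sevoflurane values (log2 fold change -0.73, SE 0.17, edgeR adjusted p = 0.044), on 345 UMIs. DESeq2 did not call it (adjusted p = 0.123). It was called without Sevoflurane 1 and not without any other library. In oligodendrocyte precursors, the dividing glia that give rise to oligodendrocytes, 1 of 28 genes passed, beside 0.802% of all genes called lower. Pdia3 had 108, 104 and 101 CPM in Control and 62.7, 60.4 and 50.4 CPM in Sevoflurane (log2 fold change -0.85, SE 0.18, edgeR adjusted p = 0.0208), on 317 UMIs. It was called without Sevoflurane 1 or Sevoflurane 2 and not without any other library.

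In oligodendrocytes, the myelin-forming cells, edgeR called 0 of 34 genes, beside 0.484% of all genes, although the ATF6 branch had a median log2 fold change of -0.48 with 11 of 12 genes negative and 7 lower at an unadjusted p under 0.05, beside 7.9% of all genes. Of the 34 genes, 9 were lower and 0 higher at that level. DESeq2 called Hspa5 and Pdia6 lower, again without a share of all genes beside it. Hspa5 went from 149 ± 13.8 to 101 ± 12 CPM (log2 fold change -0.55, SE 0.12, edgeR adjusted p = 0.0737), Pdia6 from 71.8 ± 11.3 to 45.3 ± 5.4 CPM (log2 fold change -0.65, edgeR adjusted p = 0.0844) and Dnajc3 from 81.6 ± 5.92 to 56.8 ± 5.69 CPM (log2 fold change -0.52, edgeR adjusted p = 0.0966). In all 3 the groups did not overlap. In microglia, the resident macrophages of the brain, edgeR called 0 of 31 genes, beside 0.299% of all genes, with 5 lower and 0 higher at an unadjusted p under 0.05, beside 4.89% and 4.2% of all genes, and 0 calls by DESeq2. In endothelial cells it called 0 of 28, beside 2.19% of all genes, with 2 in each direction at an unadjusted p under 0.05, near the 6.54% lower and 6.69% higher of all genes. All 9 endothelial genes tested in the ATF6 branch had a negative value, beside 49.8% of all genes, with a median of -0.34. In ependymal cells, which line the ventricles, it called 0 of 22, beside 0.567% of all genes, with 1 lower and 0 higher at an unadjusted p under 0.05, beside 4.72% and 4.91% of all genes. DESeq2 also made 0 calls in both. Atf4 in endothelial cells had 73.5, 86.2 and 100 CPM in Control and 139, 131 and 121 CPM in Sevoflurane. These groups did not overlap, but the log2 fold change of 0.59 (SE 0.21) was not called (edgeR adjusted p = 0.18). The summed level of the 13 genes that tissue dissociation is known to raise was higher there without overlap. It was 744 to 966 CPM in Control and 1147.3 to 2168.3 CPM in Sevoflurane. Of the 10 tested there, 9 had a positive log2 fold change and 1 a negative one. At an unadjusted p under 0.05, 5 were higher and 1 lower, beside 6.69% and 6.54% of all genes. The part of these genes was not tested.

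Some genes had a log2 fold change of a single sign in every class in which they were tested. The classes share their libraries, and the subclasses share their cells with the neurons, so these counts describe the data and are not independent. The share of all genes with a single sign in every class is not given here. These counts therefore have no background beside them and are not read as a trait of these genes. Xbp1, Dnajb11, Hspa5, Hsp90b1, Manf and Pdia3 were negative in 12 of 12 classes. Creld2 was negative in 8 of 8 and Sdf2l1 in 5 of 5. Xbp1 ran from -0.76 in dentate granule neurons to -0.33 in endothelial cells, and Hspa5 from -0.61 in ependymal cells to -0.09 in microglia, although no class called Hspa5 by edgeR. Sec61b was positive in 10 of 10 and Ppp1r15a in 8 of 8, while Trib3 and Chac1 were tested in neurons alone. Atf4 was positive in 11 of 12, the exception being microglia at -0.11. Ddit3, of the same branch, was negative in 9 of 10, from -0.74 in astrocytes to 0.42 in endothelial cells. Over the 12 classes, the PERK branch had 0 values lower and 6 higher at an unadjusted p under 0.05 among 53 tests, and the ATF6 branch had 57 lower and 1 higher among 130 tests. The IRE1 branch had 28 lower and 5 higher among 138 tests, and the other ER folding genes had 12 lower and 5 higher among 59 tests. Of all gene and class tests, 8.26% were lower and 6.79% higher at that level, so the count of the PERK branch lay near the background.

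Whether the response of a gene differed between classes was tested as an interaction of class and group in edgeR, with the library as a block, for 3 pairs. Neurons differed from astrocytes in 1 of 35 genes, beside 1.85% of all genes. The gene was Herpud1, whose effect was 0.61 lower on the log2 scale in neurons than in astrocytes (SE 0.16, edgeR adjusted p = 0.0412). In neurons Herpud1 had 13.8, 13.6 and 11.7 CPM in Control and 15, 11.9 and 10.3 CPM in Sevoflurane, and in astrocytes 45.1, 38.9 and 32.8 CPM in Control and 77.3, 53.4 and 41.8 CPM in Sevoflurane. Within each class the groups overlapped, and the highest astrocyte value was that of the female library. The difference was no longer called without each library in turn, except without Sevoflurane 3. Xbp1, called in astrocytes and in neurons, gave no call of a difference. Neurons and oligodendrocytes differed in 0 of 35 genes by edgeR, beside 0.524% of all genes, with 3 at an unadjusted p under 0.05, beside 9.13%. Dentate granule and CA1 pyramidal neurons differed in 0 of 34, beside 0.597% of all genes, with 5 at an unadjusted p under 0.05, beside 10.3%, among them Xbp1 (-0.32, SE 0.13, edgeR adjusted p = 0.418) and Hspa5 (-0.22, SE 0.09, edgeR adjusted p = 0.427). DESeq2 was not run on these differences.

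The level of the genes by class in the Control libraries is given as a description, since the classes were built from the same cells. CPM is a share of the transcripts of a class and not an amount per cell. Of the 7 broad classes, neurons had the lowest CPM for each gene of the ATF6 branch except Atf6 itself. Hspa5 was highest in endothelial cells at 238 ± 28 CPM, next in ependymal cells at 199 ± 20.2 CPM, and lowest in neurons at 45.8 ± 4.33 CPM, a ratio of 5.2. Hsp90b1 ran from 326 ± 31.1 CPM in endothelial cells to 94.1 ± 5.29 CPM in neurons, and Xbp1 from 83.8 ± 26.3 to 25.1 ± 0.566 CPM in the same classes. For Xbp1, endothelial cells and microglia (75.9 ± 20.4 CPM) did not differ beyond their spread. Pdia4 and Dnajc3 were highest in ependymal cells, at 74 ± 13.5 and 294 ± 21.4 CPM, against 11 ± 0.914 and 48.9 ± 1.09 CPM in neurons. Edem1 was highest in microglia at 95.8 ± 25.7 CPM and lowest in oligodendrocyte precursors at 10.4 ± 1.26 CPM. Of the sensors, Eif2ak3 and Ern1 were highest in microglia, at 73.7 ± 10.5 and 50.6 ± 8.72 CPM, and Atf6 in ependymal cells at 201 ± 46.7 CPM, not beyond the spread of microglia at 185 ± 38 CPM. Atf4 was highest in endothelial cells at 86.6 ± 13.3 CPM and lowest in neurons at 19.4 ± 0.654 CPM. Sil1, the gene that rose in neurons, had the smallest ratio of highest to lowest class among the 36 genes, 1.51, from 86.6 ± 12.2 CPM in oligodendrocytes to 57.5 ± 1.53 CPM in neurons.

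**Figure D5:**
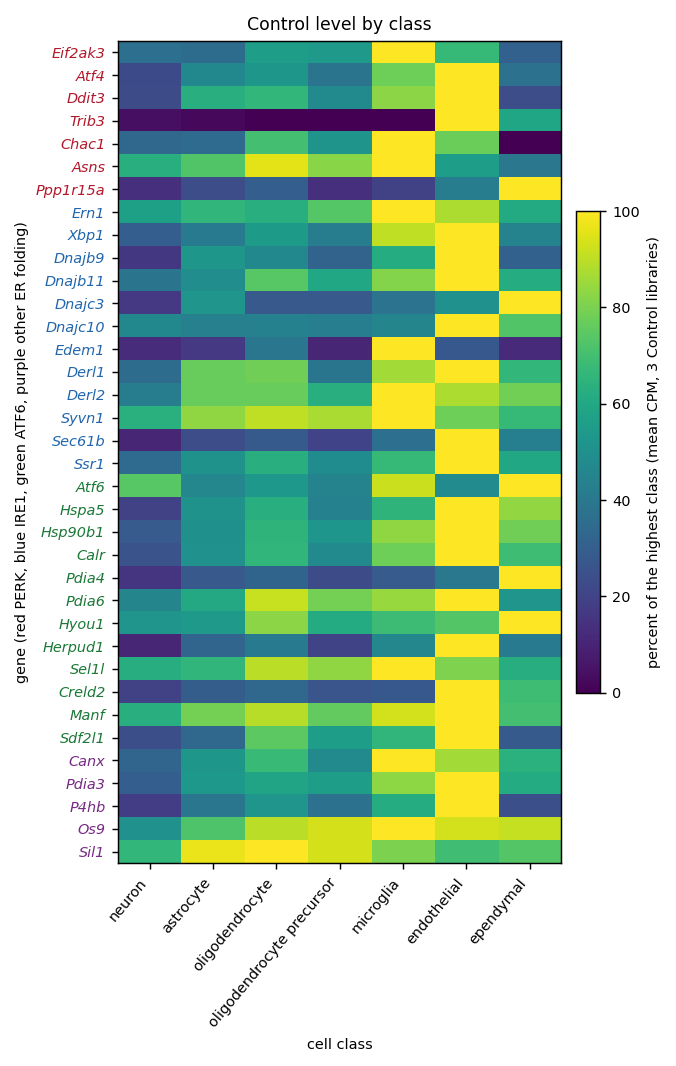
Mean Control level (3 libraries) of each gene in 7 broad classes, as a percent of the class in which that gene is highest, so colours compare classes within a gene and not genes with each other. Most rows are brightest in endothelial cells, microglia or ependymal cells and dark in neurons, Hspa5 for example at 45.8 CPM in neurons against 238 CPM in endothelial cells.

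Of 106 other genes listed for the same pathways, 105 were counted in the series. In neurons, 104 were tested, and 1 was called lower and 1 higher, beside 2.51% and 1.5% of all genes, so neither count exceeded its share. Their median log2 fold change was 0.04, close to that of all genes. The gene that fell was Erp44, which retains folding enzymes in the early secretory route, at 64.1, 70.4 and 63.3 CPM in Control and 55.8, 54.3 and 54.4 CPM in Sevoflurane (log2 fold change -0.27, SE 0.06, edgeR adjusted p = 0.0495). Eif2ak2, the eIF2 alpha kinase that responds to double-stranded RNA, rose by 1.13 on the log2 scale (SE 0.17, edgeR adjusted p = 0.0177), at 2.12 ± 0.144 CPM in Control and 4.64 ± 0.854 CPM in Sevoflurane. It also rose in astrocytes, from 24.8 ± 4.97 to 44.3 ± 6.59 CPM (log2 fold change 0.80, edgeR adjusted p = 0.0366). Of the 23 other ATF4 and amino acid response genes tested in neurons, 0 were called by edgeR, and the median was 0.15. At an unadjusted p under 0.05, 0 were lower and 2 higher, beside 11% and 9.86% of all genes, so the count of higher genes lay near the background. In astrocytes, Ddit4, an inhibitor of mTORC1, rose from 18.7 ± 3.65 to 38.8 ± 4.38 CPM (log2 fold change 1.08, edgeR adjusted p = 0.0075) and Slc7a11, the cystine transporter, fell from 287 ± 90.5 to 156 ± 18 CPM (log2 fold change -0.89, edgeR adjusted p = 0.0266). Pdia5, another disulfide isomerase gene, fell in dentate granule neurons from 21.6 ± 1.32 to 15.5 ± 1.04 CPM (log2 fold change -0.47, edgeR adjusted p = 0.0375). Slc7a5, a transporter of large neutral amino acids, rose in ependymal cells, from 0, 6.4 and 25.6 CPM to 43, 42.5 and 67.6 CPM, on 66 UMIs in all (edgeR adjusted p = 0.0417). Its fitted log2 fold change of 2.43 (SE 0.57) rests on few UMIs and on Control libraries that spread widely, at 10.7 ± 13.3 CPM.

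Other measures that differed between the groups are given beside these results, and their part in them was not tested. In neurons, the summed level of the 12 neuron markers was 43512.3 to 45303.2 CPM in Control and 38395.1 to 39093.2 CPM in Sevoflurane, so the neurons' own markers were lower as well. Of the 14 marker lists of broad cell types, 6 did not overlap between the groups in neurons: those of neurons, astrocytes (1012.7 to 1071.7 against 818 to 984 CPM), oligodendrocyte precursors (914 to 1021.6 against 766 to 876 CPM), choroid plexus (121 to 394 against 58 to 60.6 CPM) and T cells (12.5 to 14.2 against 9.71 to 11.7 CPM) were lower, and that of ependymal cells (12.6 to 14 against 15.2 to 18.3 CPM) was higher. No marker of these lists was at 0 UMIs in neurons. In dentate granule neurons, the markers of that subclass summed to 5610.3 to 6135.1 CPM in Control and 4318.5 to 4722.7 CPM in Sevoflurane. The subclass's own markers were lower without overlap also in CA1 (1197.6 to 1380.9 against 1039 to 1160.1 CPM), CA3 (3055.4 to 3121 against 2601.3 to 2673 CPM) and inhibitory neurons (14715.8 to 17211.2 against 11813.8 to 12840.5 CPM). The same held in classes where edgeR made no call among the 36 genes. Such classes were other excitatory neurons (4152.1 to 4327.5 against 3645.4 to 3981.9 CPM), oligodendrocytes (15809.5 to 17148.6 against 11912.1 to 14934.2 CPM) and endothelial cells (13451.6 to 15431 against 11496.2 to 13354.8 CPM). Own markers overlapped in microglia (6570.6 to 7534 against 5748.1 to 7232.6 CPM) and ependymal cells (6570.9 to 7569.9 against 5970.7 to 8193.1 CPM). In astrocytes, where Xbp1 fell, the astrocyte markers summed to 25423.5 to 27623.5 CPM and 20847.2 to 24166.7 CPM, and the 10 choroid plexus markers summed to 257 to 1223.5 CPM in Control and 93.7 to 102 CPM in Sevoflurane. In oligodendrocyte precursors, where Pdia3 fell, they summed to 495 to 1255.3 CPM and 234 to 266 CPM, the class's own markers to 14247.6 to 15283 CPM and 11087 to 13036.6 CPM, and the neuron markers to 17504.1 to 19115.2 CPM and 15490 to 16617.9 CPM. The summed level of the 13 genes of the cytosolic heat shock response overlapped between the groups in neurons (630 to 832 and 707 to 1003.3 CPM). That of the 13 genes of the dissociation response also overlapped (120 to 152 and 128 to 197 CPM). In ependymal cells, where Slc7a5 rose, the summed level of the dissociation genes did not overlap (310 to 327 and 473 to 927 CPM). There 4 of the 8 dissociation genes tested were called higher, beside 28 of all 7230 genes tested. In endothelial cells 2 of the 10 tested were called higher, beside 99 of all 7801 genes tested. Median UMIs per neuron (8316 to 9343 and 7897.5 to 9694) and the median mitochondrial percent (0.0956 to 0.279 and 0.16 to 0.255) overlapped too. Clusters 23 and 37, counted as neurons, held 16 and 0 cells of Control libraries and 505 and 123 cells of Sevoflurane libraries. Without these clusters, 7 of the 36 genes were called in neurons. Cells left in unnamed clusters made up 5.27 ± 1.39% of Control libraries and 7.44 ± 2.01% of Sevoflurane libraries.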

How the data were processed

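Single-cell RNA was measured in 6 hippocampal libraries, 3 per group, grouped by the treatment label. The deposited matrices hold raw UMI counts per gene and cell, which per the file headers the authors made with Cell Ranger 6.1.1; the submitters' processing notes also name CASAVA 1.8 and Seurat. The genome build, annotation and strand setting of the counting are not given in the sources used here.

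Cells under 500 UMIs, under 300 genes or above 20% mitochondrial UMIs were left out, and doublets were removed with scrublet (scanpy 1.11.5), at an expected share that grew with the number of cells. Cells were clustered from 2000 variable genes, 30 principal components and 15 neighbours by the Leiden method (igraph 0.11.9, resolution 1). Clusters were named from marker lists, with limits on the score (1), its gap to the next class (0.3) and the number of markers detected (3) that were set after the clusters were seen. Counts were summed per library and class, where each library held 20 or more cells of the class. They were tested with edgeR 4.0.16 in R 4.3.3 (quasi-likelihood test, TMM factors, low counts removed with filterByExpr), with Benjamini-Hochberg adjustment over all genes tested in a class. CPM values used the same factors. With 3 libraries against 3, a two-sided exact permutation test cannot go below 0.1, so single values carry no such p. DESeq2 1.42.0, other normalization, no filter, a replicate block, a correction for gene span, leaving out each library, doublets kept, a mitochondrial limit of 5%, neuron clusters in equal numbers and classes from each cell's own markers were the alternatives. Free RNA was not removed.

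All 36 genes were described. Other pathway genes were named where they were called at a mean of at least 20 CPM, at most 5 per class, and Eif2ak2 in neurons was named outside this rule after its values were seen. The members, gene lists and tests were chosen with earlier results of these data known. Promoters came from RefSeq (GRCm38.p6) by symbol, and gene positions from GENCODE M21 (GRCm38) by gene identifier, with a match for 99.8% of identifiers. The tests were checked on simulated counts.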

Additional observations from a re-analysis of the deposited data

Results flagged for a closer look

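The response of Herpud1, a scaffold of ER-associated degradation, differed between neurons and astrocytes by a test of the difference itself. The log2 effect in neurons minus that in astrocytes was -0.61 (SE 0.16, edgeR adjusted p = 0.0412). The log2 fold change was -0.07 in neurons and 0.51 in astrocytes, and neither passed the test on its own. Herpud1 was the 1 gene called of 35 tested, beside 1.85% of all genes, a count near that share. The call was lost without each library in turn, except without Sevoflurane 3, and the highest astrocyte value was that of the female library. The cause was not tested.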

How the results depend on the processing

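Every log2 fold change of the 20 calls kept its direction under each alternative run. The number of the 36 genes called when a library was left out ran from 0 to 7 in neurons, from 0 to 3 in dentate granule neurons, from 0 to 1 in CA1, inhibitory neurons, astrocytes, oligodendrocyte precursors and the neuron-astrocyte difference, and was 0 in CA3. With fewer libraries the residual degrees of freedom fall.
With the replicate number as a block, 1 call was left in neurons, and 0 in dentate granule, CA1, CA3 and inhibitory neurons, astrocytes and oligodendrocyte precursors. The correlations of same-numbered neuron libraries, each centred on its group, were -0.05, 0.03 and -0.01. With 3 libraries a group, these cannot tell whether the numbers pair the libraries.
With DESeq2 the count was 13 in neurons (11 lower and 2 higher), 5 in CA1, 3 in CA3, 5 in other excitatory neurons, 2 in oligodendrocytes and 0 in astrocytes, and it gave no adjusted p to any of the genes in oligodendrocyte precursors, to Pdia4 in CA1 or to Pdia6 in inhibitory neurons, where its 1 call was Hsp90b1. With no filter on low counts it was 5 in CA1, 4 in CA3, 3 in inhibitory neurons, 4 in other excitatory neurons, 4 in oligodendrocytes and 2 in astrocytes. DESeq2 size factors in edgeR gave 0 in CA3 and 1 in other excitatory neurons. The span correction gave 0, 2 and 1 in CA3, other excitatory neurons and oligodendrocytes. Keeping doublets, or the limit of 5% mitochondrial UMIs, gave 2 in CA3. Classes from each cell's markers gave 1 in CA1, 3 in CA3, and 0 in inhibitory neurons, astrocytes and oligodendrocyte precursors. With neuron clusters in equal numbers, 10 genes were called in neurons (9 lower and 1 higher). The share of all genes that DESeq2 called is not given here, so its counts cannot be set against a background. The cause of these changes was not tested.
The median log2 fold change of the ATF6 branch in neurons ran from -0.43 to -0.32 over the 16 settings, and that of the PERK branch from -0.09, without Sevoflurane 1, to 0.28. Leaving out clusters 23 and 37 was chosen after seeing the data, and 7 genes were then called in neurons. Trib3 and Chac1 were too sparse for a small change to be detectable.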
